A study of Homo sapiens with 10 samples.

Results

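The regions described here are stretches of the HEK293T genome where a methylated-DNA peak was called in each of 5 conditions. HEK293T is a human embryonic kidney cell line. The assay, MeDIP-seq, enriches fragmented DNA with an antibody against 5-methylcytosine and sequences what was bound. The peaks of the 5 deposited lists on chromosomes 1 to 22 and X were pooled, peaks sharing at least 1 bp were joined, and a joined region was kept when a peak of every list lay in it. This gave 11493 of 144156 merged regions, or 7.97%. The other 132663 regions held peaks of 1 to 4 lists. The regions were thus chosen by the presence of called peaks in these same lists, so their peak numbers, widths and fold enrichments are given as a description.

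The 5 conditions were K-KD, a knockdown that the design text attributes to KCNQ1OT1_K, the knockouts labelled K rep KO and, separately, K non-rep KO, and the lines labelled EV and WT. All were grown as the same HEK293T line. The labels do not spell out K, rep, non-rep or EV, and do not say how the knockdown or knockouts were made, whether a line is 1 clone, or which line is the control of which. KCNQ1OT1 is a long non-coding RNA made antisense to KCNQ1 in an imprinted domain of chromosome 11. There were 10 libraries, 1 immunoprecipitated and 1 input library per condition, and 1 peak list per condition, so no value has a replicate, no test across samples was possible, and no p-value is given. Intervals are Wilson 95% intervals; they cover counting error only and are too narrow, since neighbouring regions are not independent. Methylation peaks carry no expression markers with which to check the cell line's identity. Peak names inside both knockout lists have prefixes that differ from the names of the lists, and the lists' own names were followed.

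In mammalian cells methylation falls mainly on cytosines followed by guanine (CpG sites). Maintenance methylation by DNMT1 with UHRF1 copies it after replication, while TET enzymes oxidise it. Most promoters rich in CpG sites are free of methylation in somatic cells, whereas gene bodies, repeats and many germline gene promoters carry it. MeDIP recovers a fragment better the more methylated CpG sites it holds, so a peak reflects both methylation and CpG density.

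Promoters that these regions overlap are printed as chosen examples. They do not stand for the sequence of the regions as a whole, which was not analysed. A promoter window here runs from 250 bases before to 50 bases after a RefSeq transcript start (GRCh38.p14), and the 250 bases before the start are printed 5′ to 3′ on the gene's strand, with CG in capitals. FRMD8, which stabilises the iRhom proteins, and E4F1, a transcription factor and ubiquitin ligase, are shown because their windows were among the richest in CG of those overlapped. RNF17 is a Tudor-domain protein of germ cells and SYCP1 a part of the synaptonemal complex. NLRP2 belongs to the NLR family and acts as a maternal-effect gene in mice. GAGE12C, a cancer-testis antigen gene of chromosome X, stands for a tandem family. RNF17 and GAGE12C were chosen after their values were seen. The windows lie at chr11:65386387-65386636, chr16:2223341-2223590, chr13:24763919-24764168, chr1:114854613-114854862, chr19:54965034-54965283 and chrX:49531927-49532176, in that order, all on the plus strand. At SYCP1 the region starts at position 114854762, so it covers only the later part of the printed bases.
FRMD8: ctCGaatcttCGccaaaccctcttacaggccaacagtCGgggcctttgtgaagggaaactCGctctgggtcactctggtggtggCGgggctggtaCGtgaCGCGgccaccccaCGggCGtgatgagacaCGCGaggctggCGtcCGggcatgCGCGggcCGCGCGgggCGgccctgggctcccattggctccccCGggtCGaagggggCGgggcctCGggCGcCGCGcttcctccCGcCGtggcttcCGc
E4F1: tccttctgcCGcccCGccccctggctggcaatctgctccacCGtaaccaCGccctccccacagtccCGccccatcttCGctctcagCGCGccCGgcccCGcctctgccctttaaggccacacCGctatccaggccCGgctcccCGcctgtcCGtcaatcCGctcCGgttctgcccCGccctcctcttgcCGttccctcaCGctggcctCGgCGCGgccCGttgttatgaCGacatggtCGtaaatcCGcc
RNF17: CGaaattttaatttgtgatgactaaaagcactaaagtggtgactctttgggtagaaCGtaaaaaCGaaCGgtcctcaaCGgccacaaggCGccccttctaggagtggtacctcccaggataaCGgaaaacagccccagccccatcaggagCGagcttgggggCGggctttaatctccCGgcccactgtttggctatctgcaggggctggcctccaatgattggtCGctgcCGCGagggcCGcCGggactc
SYCP1: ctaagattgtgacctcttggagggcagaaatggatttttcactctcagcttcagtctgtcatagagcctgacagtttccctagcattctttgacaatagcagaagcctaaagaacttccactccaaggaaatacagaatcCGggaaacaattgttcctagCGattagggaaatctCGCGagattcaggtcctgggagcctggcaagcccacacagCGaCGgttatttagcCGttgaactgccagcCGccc
NLRP2: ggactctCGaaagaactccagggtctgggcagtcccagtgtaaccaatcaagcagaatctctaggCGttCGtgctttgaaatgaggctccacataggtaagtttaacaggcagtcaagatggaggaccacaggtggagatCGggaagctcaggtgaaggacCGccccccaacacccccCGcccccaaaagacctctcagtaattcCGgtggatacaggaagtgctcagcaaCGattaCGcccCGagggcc
GAGE12C: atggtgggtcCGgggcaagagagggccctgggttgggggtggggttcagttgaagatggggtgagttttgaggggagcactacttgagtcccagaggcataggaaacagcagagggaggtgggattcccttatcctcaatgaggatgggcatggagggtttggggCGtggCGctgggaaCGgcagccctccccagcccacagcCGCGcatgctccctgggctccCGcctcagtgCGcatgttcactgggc
The 250 printed bases hold 30 CG in FRMD8, 26 in E4F1, 15 in RNF17, 8 in SYCP1, 10 in NLRP2 and 8 in GAGE12C. Over whole windows, 52.9% of all 22132 protein-coding windows held 20 or more CG, and the upper quartile was 31. The FRMD8 and E4F1 windows, with 38 and 33 CG, lay above that quartile. The SYCP1, NLRP2 and GAGE12C windows, with 15, 12 and 13 CG, were sparser.

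The regions were broad merged intervals around a smaller common stretch. Their median width was 1749 bp, with quartiles of 1224 and 2405 bp and a range of 323 to 43460 bp, against a median of 495 bp for regions of fewer lists. Together they spanned 24.6 Mb. The bases covered by a peak of all 5 lists had a median of 722 bp per region, with quartiles of 361 and 1314 bp, and came to 11 Mb. Of the regions, 9957 held at least 200 such bases. In 927 regions, or 8.07%, the 5 lists shared no base, and a chain of overlapping peaks alone joined them. Just inside that limit, 10 regions had 1 to 9 common bases. Each list had exactly 1 peak in 8465 regions, or 73.7%. The summits of the strongest peaks of the 5 lists lay a median of 671 bp apart from first to last, and within 200 bp in 2305 regions, or 20.1%.

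The share of a list that fell in these regions was largest in the shortest list and smallest in the longest. The regions held 24.8% of the 53919 K-KD peaks, 22% of the 59098 K rep KO peaks, 24.6% of the 53396 K non-rep KO peaks, 14.9% of the 87815 EV peaks and 41.2% of the 30732 WT peaks. In absolute number the 5 lists were close, from 12650 peaks in WT to 13363 in K-KD. Of the bases each list covered, the regions took 42.8% in K-KD, 42.3% in K rep KO, 44.0% in K non-rep KO, 30.6% in EV and 57.1% in WT.

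Outside the rule by a single list were 8779 regions. K-KD lacked the peak in 2255 of them, or 25.7%, K rep KO in 897, or 10.2%, K non-rep KO in 1244, or 14.2%, EV in 546, or 6.22%, and WT in 3837, or 43.7%. Their median widths by missing list were 1164 bp for WT and 1327 to 1337 bp for the other 4. WT, missing most often, was the shortest list, and EV, missing least often, the longest. Read depth was not computed here, and its part in these counts was not tested.

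Peaks in the regions were wider and had a higher fold enrichment, a ratio to background that the authors' caller gave for the summit, than other peaks of the same list. The median widths were 1010 against 448 bp in K-KD, 1214 against 451 bp in K rep KO, 1140 against 439 bp in K non-rep KO, 1294 against 479 bp in EV and 1175 against 568 bp in WT. The median folds were 4.51 against 4.06 in K-KD, 5.52 against 4.18 in K rep KO, 5.34 against 4.22 in K non-rep KO, 5.56 against 4.18 in EV and 4.75 against 3.93 in WT. The separation was smallest in K-KD. Of the 1000 peaks with the highest fold in each list, 91.8% lay in the regions in K-KD, 96.6% in K rep KO, 97.0% in K non-rep KO, 96.3% in EV and 95.4% in WT. Peaks of at least 2500 bp numbered 1013 to 1566 per list, and 90.2% to 96.4% of them were in the regions.

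**Figure D1:**
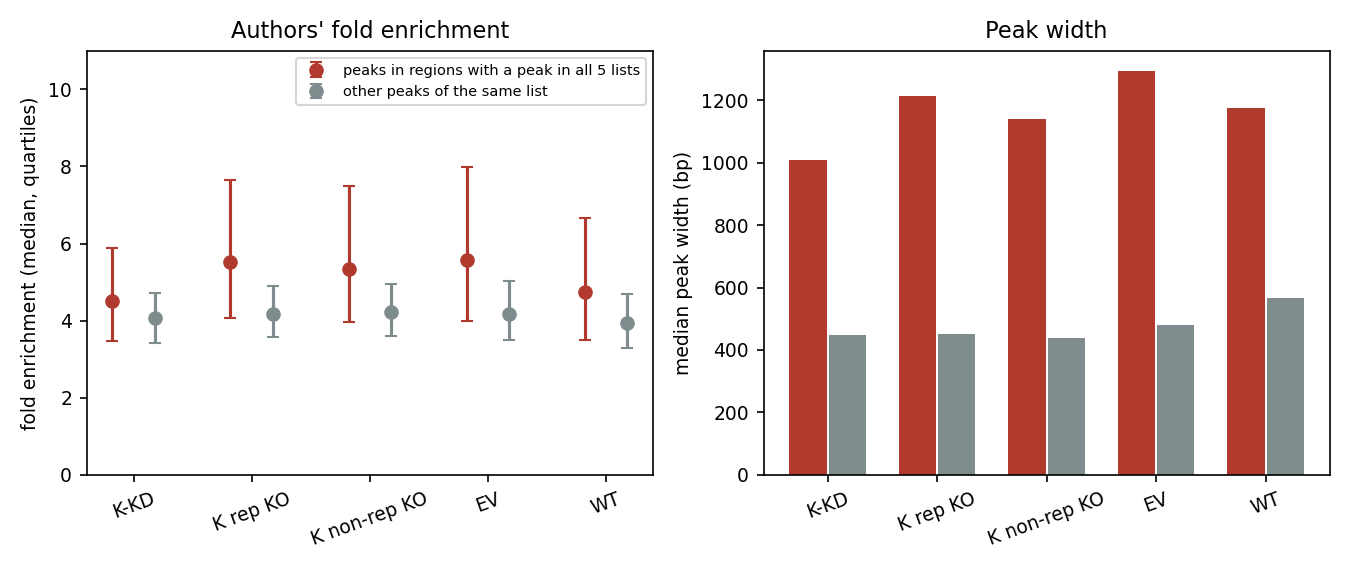
Authors' fold enrichment (left, median with quartiles) and median peak width in bp (right) for peaks in regions with a peak in all 5 lists (red) and for the other peaks of the same list (grey), by list. Red lies above grey in every list, with medians of 4.51 against 4.06 in K-KD and 5.56 against 4.18 in EV.

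A region called in every list was not a region of equal strength in every list. For each region the fold of a list's strongest peak was placed as a percentile among all peaks of that list. The median percentile was 69.9 in K-KD, 82.4 in K rep KO, 80.6 in K non-rep KO, 85.0 in EV and 70.5 in WT. Within a region the highest and lowest of the 5 percentiles differed by a median of 54.8 points, with quartiles of 30.2 and 73.9. The lowest percentile belonged to K-KD in 28.3% of regions, to WT in 25.7% and to each of the other 3 lists in 14.4% to 16.8%. The 90th percentile was reached in all 5 lists by 717 regions, or 6.24%, and in at least 1 list by 7729, or 67.2%. Across the 11493 regions, Spearman's rank correlation of fold was 0.34 to 0.41 between K-KD and the others and 0.43 to 0.54 among the other 4. These are descriptions over regions that share a genome, its copy number and its CpG density.

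The strongest regions by mean percentile had folds far above the list medians. The first, at chr5:42978743-42982145, lay outside any RefSeq gene, 54.0 kb from the nearest protein-coding one, with folds of 27.7 in K-KD, 47.1 in K rep KO, 32.2 in K non-rep KO, 45.5 in EV and 25.6 in WT. A second, at chr9:122866827-122868066 within RC3H2, an RNA-binding ubiquitin ligase gene, had 25.1, 40.4, 41.0, 73.7 and 22.4 in the same list order. The region at chr17:43257867-43261302, 26.6 kb from CCDC200, had 30.3, 39.6, 49.9, 44.8 and 20.0. All 3 had their lowest fold in WT, though there too they stood at percentiles of 99.9 to 100 of the list. At chr9:134115509-134118899, 16.3 kb from WDR5, a gene for a subunit shared by histone H3K4 methyltransferase complexes, the folds were 40.1, 21.8, 29.8, 36.9 and 37.8. K rep KO was lowest, at a percentile of 99.8 of its list. The fifth, chr5:78980977-78982214 in the arylsulfatase B gene ARSB, had 26.4, 35.6, 38.8, 22.6 and 18.2. The remaining 5 of the first 10 were in RNGTT, PLS1 and SMIM20 and at 2 intergenic sites of chromosomes 4 and 17. None of these 10 was in a gene-free 1 Mb window, but the sites on chromosomes 4 and 17 lay 798 kb and 690 kb from the nearest protein-coding gene.

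The longest regions were elsewhere. The 5 widest all lay on chromosome 16 between positions 36561060 and 37782246, and the widest, chr16:37738787-37782246, held 9 peaks in K-KD, 6 in K rep KO, 12 in K non-rep KO, 12 in EV and 5 in WT. The longest common stretch, 21088 of 21572 bp, was at chr10:42066598-42088169, where the fold was 8.11 in K-KD, 10.2 in K rep KO, 10.8 in K non-rep KO, 11.4 in EV and 8.07 in WT. The windows of this region and of some of the widest, such as chr16:36561060-36590495, were not gene-free either.

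A smaller share of the regions of all 5 lists than of the rest lay in protein-coding genes. A gene region was the gene with 2 kb on both sides. It was overlapped by 45.6% of the regions of all 5 lists (5238; interval 44.7% to 46.5%) and by 62.1% of regions of fewer lists (61.8% to 62.3%). By number of lists the share was 62.2% for 1 list, 63.4% for 2, 61.7% for 3 and 56.8% for 4, so the shift came with the highest list numbers. Seen from the genes, 5.98% of the 87586 merged regions in protein-coding gene regions held a peak of every list, against 11.1% of regions outside them, and 8.71% of those outside but in 1 Mb windows with a gene.

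Windows with no gene at all held many of them. A 1 Mb window with no RefSeq gene, of any kind, contained 2007 regions of all 5 lists, or 17.5% (16.8% to 18.2%), and 5799 regions of fewer lists, or 4.37% (4.26% to 4.48%). The share was 3.25% for regions of 1 list, 4.65% for 2, 6.58% for 3 and 10.4% for 4. Width goes with both the number of lists and position. Among regions of 500 to 1000 bp, 3.42% of those of all 5 lists and 3.93% of those of fewer lists were gene-free. Among regions of 1000 to 2000 bp, 12.8% of those of all 5 lists and 11.1% of those of fewer lists were, and among regions of 2000 to 4000 bp the shares were 23.7% and 21.5%. The shares in protein-coding gene regions in these 3 bands were 52.7% against 63.6%, 49.4% against 57.6% and 43.3% against 49.6%. With peaks of fold 4 or more alone, the gene-free shares were 6.99% for regions of all 5 lists and 4.42% for the rest. Windows with genes alone gave 55.2% of the regions of all 5 lists in protein-coding gene regions, against 64.9% of the rest. Only 15.9% of the regions of all 5 lists lay within 5 Mb of a chromosome end, against 19.5% of the rest.

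**Figure D2:**
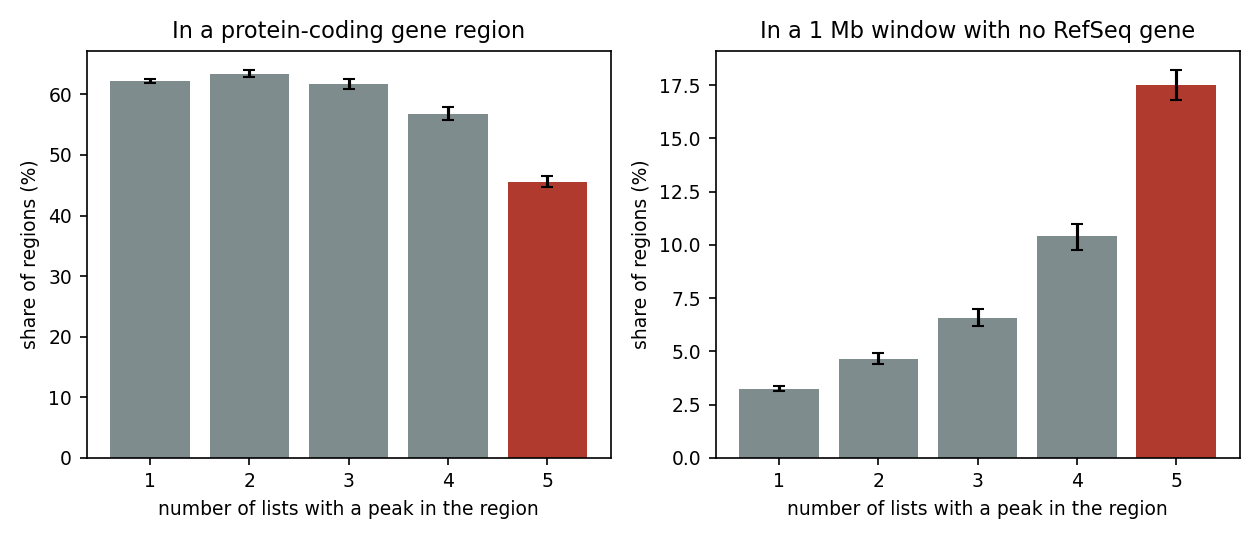
Share (%) of merged regions overlapping a protein-coding gene region (left) and lying in a 1 Mb window without a RefSeq gene (right), by the number of lists with a peak in the region, with Wilson 95% intervals. Regions of all 5 lists (red) are lowest on the left, at 45.6%, and highest on the right, at 17.5%.

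These gene-free windows were few. Of 54 with any merged region, 51 held at least 1 region of all 5 lists and 45 held at least 10. Over all windows, 71.7% of the 2906 with a merged region held one of all 5 lists. Of the 34 windows with 40 or more, 26 were gene-free. Among the rest, the windows starting at 60000001 on chromosome 7, 36000001 on chromosome 16 and 28000001 on chromosome 20 held no protein-coding gene. The fullest was chromosome 12 from 35000001 to 36000000, where 108 of 230 merged regions were of all 5 lists and the lists had 260 peaks in K-KD, 249 in K rep KO, 252 in K non-rep KO, 254 in EV and 248 in WT. The next megabase, 36000001 to 37000000, had 101 of 237. Chromosome 18 from 16000001 to 17000000 and from 19000001 to 20000000 had 76 each, of 182 and 169, and chromosome 9 from 44000001 to 45000000 had 75 of 270. In the first window the 5 lists had nearly equal peak numbers, unlike genome-wide, where WT had 30732 and EV 87815. GRCh38 fills centromeres with modelled alpha-satellite sequence, in which short reads have many near-identical places to align. Centromeres are not annotated in the tables used here, and the part that read placement plays in these windows was not tested.

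Members in gene-free windows were wider and weaker than the others. Their median width was 2474 bp, against 1666.5 bp in windows with genes. Their median folds were 3.8 against 4.91 in K-KD, 4.51 against 6.12 in K rep KO, 4.18 against 6.13 in K non-rep KO, 3.99 against 6.46 in EV and 3.91 against 5.24 in WT. Of the 717 regions at or above the 90th percentile in every list, 31, or 4.32%, were gene-free.

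Chromosome 18 had the highest share. A peak of every list was present in 457 of its 2040 merged regions, or 22.4% (20.6% to 24.3%), whereas the other chromosomes lay between 5.15% on chromosome 2 and 10.2% on chromosomes 12 and X. Gene-free windows held 58.0% of these 457 regions. In windows with genes its share was 14.6%, or 192 of 1318, and the next highest was 9.08% on X. Of these 192, 41 lay between 20000001 and 21000000, next to a gene-free window, where ROCK1 was the only protein-coding gene. K-KD had a peak in 827 of the 2040 merged regions, K rep KO in 1050, K non-rep KO in 988, EV in 1278 and WT in 972. Here WT, the shortest list, had a peak in more regions than K-KD. With peaks of fold 4 or more alone, the chromosome 18 share was 7.13%, against 4.53% over all chromosomes, and peaks with −log10 q of at least 5 gave 11.7% against 7.77%.

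**Figure D3:**
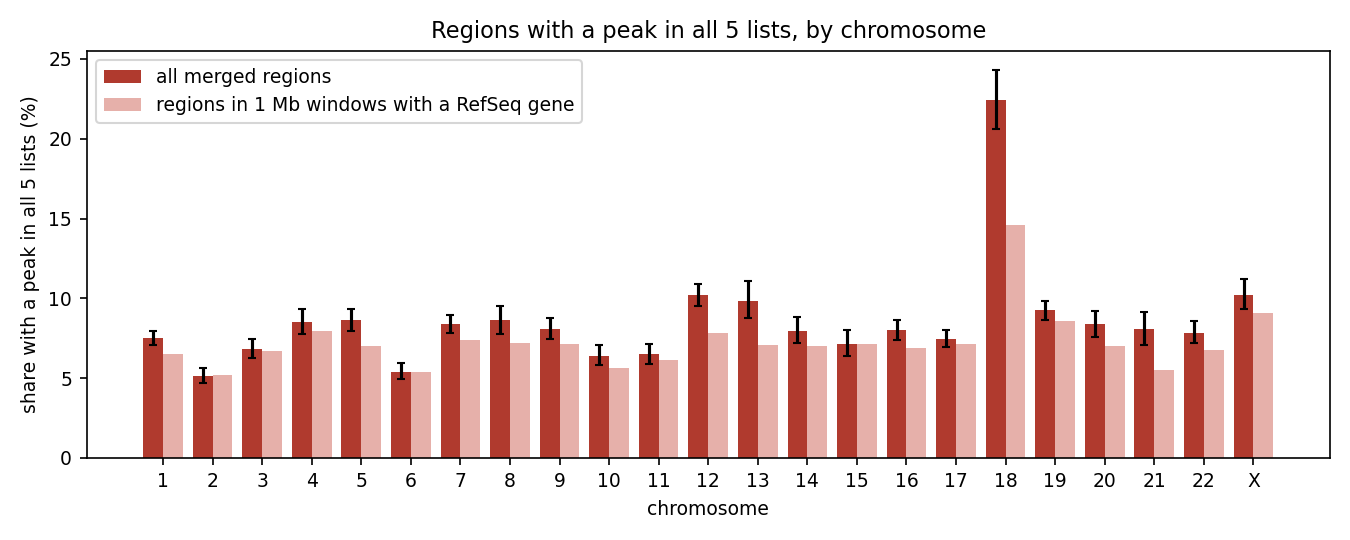
Share (%) of merged regions with a peak in all 5 lists on each chromosome, over all regions (dark, with Wilson 95% intervals) and over regions in 1 Mb windows with a RefSeq gene (light). Chromosome 18 is highest in both, at 22.4% and 14.6%.

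On chromosome 11 the share was 6.48%. K rep KO had a peak in 21.5% of its merged regions, against 39.9% on the other chromosomes, while K-KD had 36.7% against 35.5%, K non-rep KO 35.6% against 35.3%, EV 59.6% against 58.9% and WT 21.5% against 20.3%. The low K rep KO coverage touches every count on this chromosome. Without the K rep KO list, 433 chromosome 11 regions, or 7.39%, had a peak in the other 4, against 8.65% elsewhere.

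The 23 genes of the KCNQ1OT1 domain and of its neighbourhood at 11p15.5 held no region of all 5 lists. Their gene regions overlapped 183 merged regions, and a count of 0 allows a share of up to 1.64% when set at 3 counts, or 2.06% by the Wilson interval, against the 5.98% of all merged regions in protein-coding genes. Of these 183, 128 had a peak of 1 list, 39 of 2, 13 of 3 and 3 of 4. K-KD had a peak in 54 of them, K rep KO in 19, K non-rep KO in 47, EV in 128 and WT in 9. Without the K-KD list 1 region would have met the rule, and likewise 1 without K rep KO and 1 without WT. KCNQ1 itself, the potassium channel gene that hosts the RNA (chr11:2445008-2849105), overlapped 63 merged regions, with 14 peaks in K-KD, 9 in K rep KO, 11 in K non-rep KO, 45 in EV and 3 in WT.

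At the level of genes, 3897 of 19821 protein-coding gene regions, or 19.7%, held at least 1 region of all 5 lists. Here and in the gene lists below, a gene counts when such a region overlaps it or its flanks. A peak of every list need not reach the gene. For example, OR2F2 counts with no peak of K rep KO or WT, and RPLP0 with none of K rep KO or EV. Exactly 1 was held by 2819 genes and 5 or more by 58. Genes with one had a median length of 50.7 kb, against 20.1 kb for those without. Any merged region was held by 15528 genes, or 78.3%.

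The genes with most regions were long and rich in peaks. PTPRN2, a receptor-type phosphatase of secretory granules at chr7:157539056-158587823, held 14 of 114 merged regions. It had 51 peaks in K-KD, 48 in K rep KO, 47 in K non-rep KO, 77 in EV and 22 in WT. GNG7, a G-protein gamma subunit gene at chr19:2511219-2702694, held 11 of 64, with 34, 39, 34, 46 and 22 peaks in the same list order. DIP2C had 10 of 113. The chromatin regulator ANKRD11 had 9 of 71, and ARHGAP39 9 of 45. LMF1, needed for lipase maturation, had 8 of 57. BCAS3, CHLSN, MACF1, which links microtubules and actin, and MAD1L1, a spindle checkpoint gene, had 7 each, of 71, 69, 39 and 189. Beside the 5.98% of all merged regions in protein-coding gene regions, MAD1L1 lay below at 3.7%, while the other 9 lay between 8.85% and 20.0%. The 10 genes were chosen for having most of these regions, so shares above 5.98% follow in part from the choice. WT had the fewest peaks in every one of the 10, between 9 and 22.

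Per unit length the leading genes were shorter. Among genes with at least 5 regions, CSNK1G2, a casein kinase gene, had 11.3 per 100 kb, with 5 of 22 merged regions. The actin nucleator gene SPIRE2 had 10.7 per 100 kb and CSF2RA, the GM-CSF receptor alpha chain, 8.28. CSF2RA lies in the pseudoautosomal region, whose reads X and Y share. GOLGA3, USP4, PCGF3, MGRN1, NPLOC4, ZNF143 and SNX6 followed, from 7.79 down to 6.84 per 100 kb. USP4, a deubiquitinase gene, had 5 of 17 and ZNF143, for a promoter-binding zinc finger protein, 5 of 16. Both rules use the chosen regions, so these ranks are a description.

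Other genes were rich in peaks and held none. Of 754 protein-coding gene regions with at least 20 merged regions, 218 had no region of all 5 lists. AGAP1 led with 114, and the kinase gene RPS6KA2 had 97 and IQSEC1 90. AGAP1, of the same number of merged regions as PTPRN2, had 31 peaks in K-KD, 32 in K rep KO, 29 in K non-rep KO, 58 in EV and 8 in WT. RPS6KA2 had 34, 37, 25, 44 and 7 in that order. KCNQ1, PCSK6, CMIP, KLHL29, TNRC18 and FBRSL1 followed, with 53 to 63 merged regions. WT had 2 to 8 peaks in each of these genes. The part of the few WT peaks in this was not tested.

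Genes of the DNA methylation and H3K9 machinery had shares of merged regions near the 5.98% of all protein-coding gene regions, while 19.7% of all protein-coding genes held a region. Of 21 genes for DNA methylation and demethylation, 8 held at least 1, and 14 of 192 merged regions, or 7.29% (4.39% to 11.9%), were of all 5 lists. TET1, a methylcytosine dioxygenase gene, had 4 of 17. UHRF1, the cofactor of maintenance methylation, had 3 of 27, and MBD2, a reader of methylated DNA, 2 of 4. TET1 had 8 peaks in K-KD, 9 in K rep KO, 6 in K non-rep KO, 15 in EV and 5 in WT. In the list of H3K9 methylation and HP1 genes, 9 of 18 held one, and 14 of 162 merged regions, or 8.64% (5.22% to 14%), were of all 5 lists. The methyltransferase gene EHMT1 led with 6 of 71. Of 8 H3K36 methyltransferase genes only ASH1L and NSD1 held any, with 2 each, and the share was 2.78%, or 4 of 144.

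Germline genes had a share above the 5.98% of all protein-coding gene regions, and imprinted genes a share close to it, with no test of either. Of 58 germline and cancer-testis genes, 18 held a region, with 31 of 276 merged regions, or 11.2%. MOV10L1, a helicase gene of the piRNA pathway, had 4 of 23. The meiotic gene MEIOB had 3 of 8, the PIWI gene PIWIL3 had 3 of 5 and the Tudor gene TDRD9 had 3 of 8. Of 44 imprinted genes outside 11p15.5, 10 held one, with 21 of 353 merged regions, or 5.95%. TRAPPC9 had 7 of 102, DLGAP2 4 of 11 and WDR27 3 of 46.

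Gene families lay on both sides of the same background of 5.98% of merged regions and 19.7% of genes. Ribosomal protein genes had 16 of 88 merged regions of all 5 lists, or 18.2% (11.5% to 27.5%), in 14 of 78 genes, with RPL23 at 2 of 4 and RPL6 at 2 of 3. Chromosome 19 zinc finger genes had 71 of 600, or 11.8% (9.49% to 14.7%), in 58 of 246 genes, led by ZNF490, ZNF565 and ZNF57 with 3 each. Housekeeping genes had 8 of 64, or 12.5%. Collagen genes had 11 of 444, or 2.48% (1.39% to 4.38%), and potassium channel genes 13 of 458, or 2.84% (1.67% to 4.8%). HOX genes had none of 67, which allows up to 4.48% when set at 3 counts, or 5.42% by the Wilson interval. Clustered protocadherin genes had 22 of 53 genes with a region but only 2 distinct regions of 63, since their long transcripts overlap.

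The other 8 lists are set against the same 5.98%. Olfactory receptor genes had 7 of 55, or 12.7%, in 4 of 387 genes, with 4 of the 7 at OR2C1. Innate sensing genes had 6 of 78, or 7.69%, with CGAS and MAVS, the DNA sensor and the adaptor of RNA sensing, at 2 each. Senescence genes had 3 of 51, or 5.88%, and core histone genes 4 of 43, or 9.3%. Among multicopy families, TBC1D3, GOLGA and NPIP genes had 20 of 186, or 10.8%, and POTE, ANKRD and SPATA31 genes 3 of 61, or 4.92%. NBPF genes had 2 of 90, or 2.22%, and PRAMEF and USP17L genes 1 of 43, or 2.33%. Reads of these families can align to several copies, so their placement is uncertain. None of these shares was tested against the background.

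Along genes, the regions of all 5 lists were sparse at the 3′ end. In 11552 protein-coding genes of 10 kb or more with a known strand, chromosome 8 not included, 3675 of them and 59132 regions of fewer lists had their midpoint inside the gene. The last of 10 equal parts of the gene held 6.48% of those of all 5 lists (5.73% to 7.32%) and 11.7% of the rest (11.4% to 11.9%). The first part held 11.5% and 9.78%. The difference in the last part was as large for regions of 1000 to under 4000 bp, at 6.26% against 11.4%, and in genes of at least 50 kb, at 7.46% against 12.3%.

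**Figure D4:**
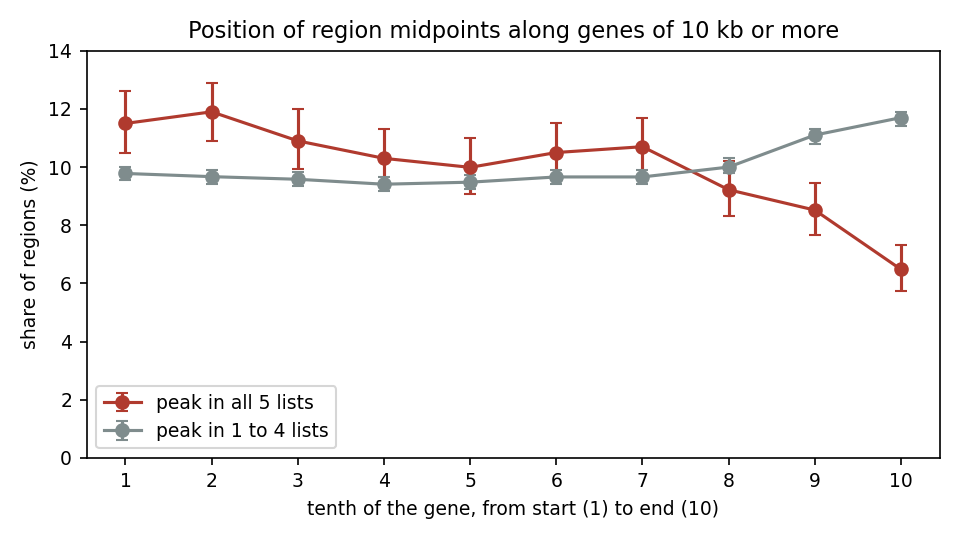
Share (%) of region midpoints in each of 10 equal parts of the gene, from start (1) to end (10), for regions with a peak in all 5 lists (red) and in 1 to 4 lists (grey), with Wilson 95% intervals. The red line ends at 6.48% and the grey line at 11.7%.

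Within 1 kb of transcript starts the share was lower for regions of all 5 lists than for the rest. Of the regions of all 5 lists, 1.08% lay within 1 kb of the nearest protein-coding start, and of the rest 2.57%, again without chromosome 8. These shares were not matched for width, which had medians of 1749 and 495 bp. The median distance was 41.5 kb against 31.7 kb, and in windows with genes 27.9 kb against 29.4 kb. Of the 22132 protein-coding promoter windows, 126, or 0.569% (0.478% to 0.677%), belonging to 114 genes, were overlapped by a region of all 5 lists. A further 1390, or 6.28%, were overlapped by regions of fewer lists alone, and 20616, or 93.2%, by none. Regions of all 5 lists made up only 7.97% of all merged regions, so these window counts also reflect how many regions there were. In 71 windows of 63 genes, or 0.321%, a peak of each list reached the window itself. Without the WT list, regions with a peak in the other 4 overlapped 1.12% of the windows.

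Overlapped promoters were of intermediate CpG density. The median number of CG was 15 in windows under regions of all 5 lists, 15 under regions of fewer lists and 22 in windows with none. Windows with 10 to 14 CG were overlapped most often, at 2.56% (44 of 1721; 1.91% to 3.41%). These 44 include copies of like sequence, from the GAGE family, TAF11L genes and LOC genes on chromosome 7. Each copy was counted, so this share and its interval rest in part on windows that are not independent. The share without such copies was not computed. Windows with 0 to 4 CG were overlapped at 0.0996% and those with 5 to 9 at 0.422%. The share was 1.1% with 15 to 19 CG, 0.791% with 20 to 24, 0.253% with 25 to 29 and 0.402% with 30 to 39. None of 2174 windows with 40 or more was overlapped, which allows up to 0.138% when set at 3 counts, or 0.176% by the Wilson interval. Overlap by any merged region was also highest at 10 to 14 CG, at 21.7%, and lowest at 40 or more, at 0.552%.

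**Figure D5:**
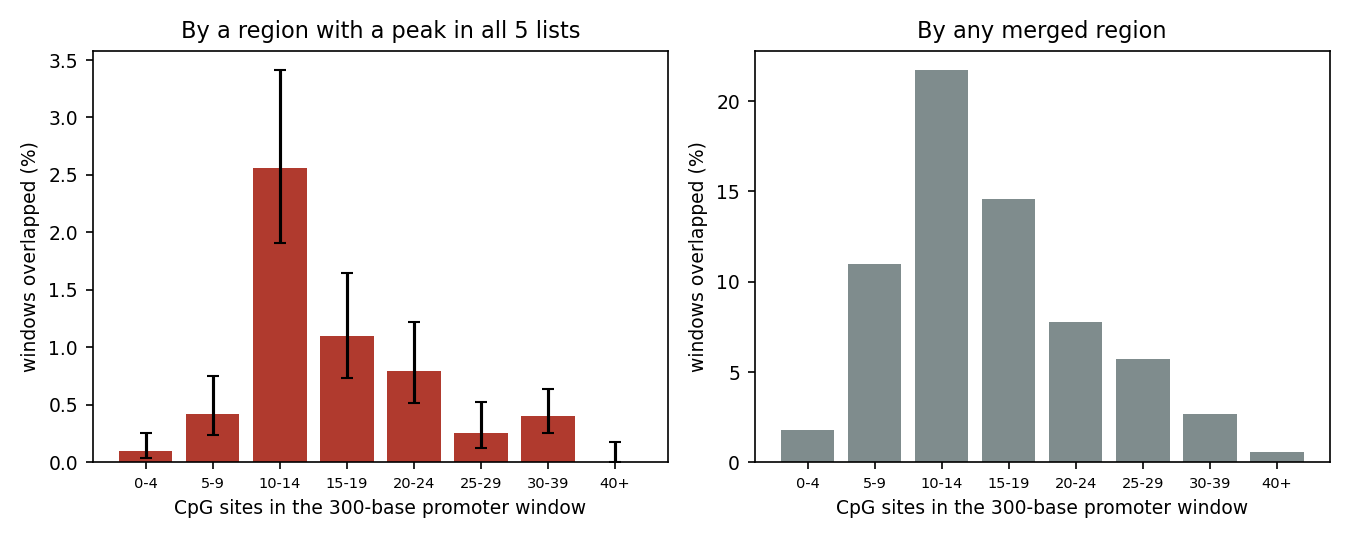
Share (%) of protein-coding promoter windows overlapped by a region with a peak in all 5 lists (left, with Wilson 95% intervals) and by any merged region (right), by the number of CpG sites in the window. Both are highest at 10 to 14 CpG sites, at 2.56% and 21.7%. The left bar there includes copies of like sequence, from the GAGE and TAF11L families and LOC genes, each counted.

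Among the overlapped windows with most CG, 6 of 10 genes had a peak of each list over the window. FRMD8, with 38 CG, had folds of 4.87 in K-KD, 5.93 in K rep KO, 11 in K non-rep KO, 7.5 in EV and 5.25 in WT. DPH7, of the diphthamide pathway, had 35 CG and folds of 3.42, 11.8, 10.1, 10.9 and 6.43 in the same list order. K-KD was lowest in both genes. E4F1 had 5.12, 10.4, 9.41, 7.56 and 5.99. GP1BB, a platelet glycoprotein gene, PLAAT3, a phospholipase gene, and TAF1, for the largest TFIID subunit, were the others. K-KD was also lowest in E4F1 and in PLAAT3, at 3.89, but highest in GP1BB, at 6.42. In TAF1 the lowest fold was 4.07, in K rep KO. The sperm protein gene SPESP1 with its readthrough SPESP1-NOX5, ARL9 and the eye development gene PAX6 lay under such a region without a peak of every list at the window.

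Of the fixed-list genes with an overlapped promoter, SYCP1, NLRP2, GAGE1 and ZNF875 had a peak of each list over the window and NPIPA9 too, though its lists shared no base of the region. SYCP1 had low folds of 2.92 in K-KD, 3.95 in K rep KO, 4.82 in K non-rep KO, 2.94 in EV and 3.2 in WT. NLRP2 had 5.41, 12.4, 10.3, 17.4 and 5.49 in that order, in a region of 4205 bp of which 3977 bp were common. Both of its RefSeq starts lay in the region, 1090 bp apart, and the 250 bases before each differ at 1 position, so reads of these copies may be exchanged. ZNF875 had 4.72, 14.9, 5.65, 11.4 and 5.68. MAGEA4, COL11A1, ZNF565, ZNF585B and H3C6 were overlapped but lacked a peak of at least 1 list at the window. RNF17, whose window is printed above, had 6.69, 11.6, 9.86, 7.73 and 13.5, with WT highest.

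The GAGE genes made up a block of such promoters. Of 12 GAGE genes on chromosome X, 9 had a promoter window under a region of all 5 lists, each in a region of its own, and 8 had a peak of each list over the window. These 8 were GAGE12C to GAGE12H, GAGE2A and GAGE1, between positions 49531927 and 49599069. Across the 9 regions the fold was 2.94 to 11 in K-KD, 3.08 to 8.27 in K rep KO, 3.94 to 8.98 in K non-rep KO, 3.57 to 10.1 in EV and 2.28 to 6.63 in WT. The longest run shared by any pair of the 250 bases before the start was 227 to 250 bases, and the printed GAGE12C sequence is the same in GAGE12D, GAGE12E, GAGE12F, GAGE12H and GAGE2A. A read from one copy fits the others, so the 9 regions are not independent. GAGE10 had no region, GAGE12J one of 3 lists and GAGE13 one of 4. The family was singled out after its values were seen. On chromosome 7, at chr7:63748673-63764807, 1 region with 14212 common bases overlapped 12 promoter windows of genes named only by LOC numbers. It met the window of LOC124901643 only at the edge, where peaks of 2 lists reached.

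Some microRNA hairpins were overlapped. Of 1558 hairpins, 18, or 1.16%, lay under a region of all 5 lists and 165, or 10.6%, under any. Regions of all 5 lists made up 7.97% of all merged regions, so this count also reflects how many regions there were. The median number of CG in the 18 was 4, against 1 in all hairpins. The 18 include the MIR941 copies of 1 region, with 5 CG each, and no median was computed for hairpins under regions of fewer lists. MIR941-1, MIR941-3, MIR941-4 and MIR941-5 shared 1 region at chr20:63919356-63920484, with folds of 4.87 in K-KD, 9.82 in K rep KO, 3.44 in K non-rep KO, 6.3 in EV and 3.75 in WT. They give the same mature microRNA and so share 1 seed. MIR9-1, a hairpin of the neural microRNA miR-9, had 7.38, 4.29, 5.05, 3.74 and 4.8 in that order. Both mature sequences are printed from RefSeq, 5′ to 3′, with bases 2 to 8, the seed, in capitals, to show which products come from these sites.
hsa-miR-941: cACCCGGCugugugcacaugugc
hsa-miR-9-5p: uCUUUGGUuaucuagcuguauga
The other hairpins included MIR1237 with 11 CG and MIR3177 with 7. MIR3177 had folds of 5.69 in K-KD, 15.6 in K rep KO, 12.3 in K non-rep KO, 17.0 in EV and 16.4 in WT, with K-KD lowest.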

How the data were processed

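DNA was fragmented, immunoprecipitated with an antibody against 5-methylcytosine and sequenced, per the labels' protocols. Bowtie2, MACS2 and deepTools were used with GRCh38, per the submitters' processing notes, with versions, settings and any pooling not given in the sources used here. For each condition the authors deposited 1 peak list, with a score, a fold enrichment (a ratio at the summit over the background), and −log10 p-values and −log10 q-values per peak. The deposited values served to describe, rank or filter peaks inside their own list. Folds of different lists printed side by side are descriptions and were not scaled between lists. The sample titled KD was matched to the K-KD list. A further list (1) that no sample's label matches was left aside.

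Peaks elsewhere than on chromosomes 1 to 22 and X, 3.56% to 5.83% of a list, were dropped. Positions are 1-based. Peaks of the 5 lists were merged with at least 1 bp of overlap in Python 3.11.15 with pandas 2.3.3 and numpy 2.4.6, intervals came from statsmodels 0.14.6, and the merging was tested on simulated data. Genes came from the RefSeq table of GRCh38.p14, 58419 genes on these chromosomes; 679 rows on scaffolds or alternate loci were left out. The promoter table held no window on chromosome 8. Exons, introns, UTRs, repeats and the sequences of the regions were not analysed here. Read counts are not in the lists and depth was not computed; the lists' unequal lengths bear on every count.

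Members and the 21 gene lists were chosen with earlier results of these data known, and no list is given a test. Named genes were the 10 protein-coding genes with most regions of all 5 lists, the 10 with most per 100 kb among those with at least 5, the 10 with most merged regions and none of all 5 lists (1 of them is not reported here), the 10 overlapped promoters with most CG, list members with an overlapped promoter, up to 4 members per list with most regions, the 10 regions of highest mean fold percentile and the 5 fullest windows. Alternatives were stricter peaks, lists of equal length, common bases, other gene regions, autosomes alone, leaving out the 1% of windows with most merged regions and leaving out each list.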

Additional observations from a re-analysis of the deposited data

How the results depend on the processing

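Peaks with −log10 q of 5 or more gave 4710 regions of all 5 lists, 0.249% of promoters and 36.1% of WT peaks, with 45.0% of the regions in protein-coding gene regions. Peaks of fold 4 or more gave 4335, 0.249%, 27.7% and 51.2% in that order. Lists cut to the length of WT by −log10 p gave 6659, 0.375%, 24.1% and 46.8%. Requiring 1 base common to all lists gave 10566, 0.452%, 37.8% and 44.8%, and 200 bases gave 9957, 0.411%, 35.7% and 44.1%. Gene bodies without a flank held 41.0% of the regions, and without the 1% of windows with most merged regions gene regions held 43.4%. Counting only promoter windows reached by a peak of each list, chosen after seeing the data, gave 0.321%. Leaving out each list gave 11968 to 15308 regions, 0.538% to 1.12% of promoters, 44.6% to 50.8% in gene regions and 42.2% to 48.3% of WT peaks; the ends at 15308, 1.12% and 50.8% came without WT. Under every one of these settings the share in protein-coding gene regions was lower for regions of all lists than for the rest. The last part of genes held 5.74% to 8.34% of the regions, 8.34% without WT, against 11% to 11.8% of the rest. The counts in the 20 leading genes moved by over 1.5 times in 18 with the −log10 q limit and in 17 with the fold limit. They moved in 10 with equal lengths, in 6 without WT and in 9 without the 1% of windows with most merged regions. That last setting drops every region in those windows, so genes whose regions all lay there count 0, as these 9 did. The cause of the other shifts was not tested. No paired analysis was possible because each condition has 1 list and no replicates. With no read counts, depth could not be set beside any value.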
